A study of Homo sapiens with 4 samples.

Results

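U2 small nuclear RNA (snRNA) was followed in RNA recovered with an SF3B6 antibody (IP) and in input RNA of MDA-MB-231 cells, a human triple-negative breast cancer line. Every row of the deposited gene table whose symbol is U2 or begins with RNU2- was taken, which gave 17 of 18276 rows. These were 12 rows named U2, told apart by their Ensembl gene identifiers, together with RNU2-1 and 4 pseudogenes (RNU2-6P, RNU2-59P, RNU2-64P and RNU2-70P). The 2 groups, SF3B6_IP and Input, hold 2 libraries each, described in the series as biological replicates. Cells of both groups came from the same line and were irradiated, lysed, and treated with DNase and then micrococcal nuclease before the antibody was added. Input was the only reference used, and an IgG library was not analysed here, so that RNA recovered without regard to SF3B6 is included in every IP value. All titles give MDA-MB-231, whereas the final digit of the labelled line name is not the same in every sample.

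U2 snRNA is the RNA of the U2 small nuclear ribonucleoprotein (snRNP), which base-pairs around the branch point of an intron so that the branch point adenosine bulges out for the first step of splicing. SF3B6 is a small subunit of SF3b, a protein complex of the U2 snRNP that sits beside the branch point adenosine. SF3b is also part of the U11/U12 particle of the minor spliceosome, in which U12 takes the place of U2. In the human genome, a tandem array of functional U2 genes lies on chromosome 17, and many pseudogenes are dispersed elsewhere. The U2 gene RNU2-2 lies outside this array, on chromosome 11. The series asks which transcripts SF3B6 contacts in these cells.

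SF3B6 IP 1 held 55492 gene counts, SF3B6 IP 2 30431, Input 1 317190 and Input 2 519836. Levels are given as CPM, counts per 1e+06 gene counts of a library. On that scale the 3 counts compatible with a gene seen at 0 correspond to 54.1 and 98.6 CPM for IP and to 9.46 and 5.77 CPM for input. All 10 markers listed for this line had input counts, among them VIM at 902 and 1023 CPM, while SPARC was near 0 with 0 and 2 counts. CDH1, an epithelial cadherin, had 1 and 3 input counts, although ERBB2 (240 and 283 CPM) and KRT19 (202 and 244 CPM) were counted. Markers of blood cells summed to 0 and 1.92 CPM in the inputs, with 1 of 6 counted, and to 36.0 and 32.9 CPM in the IP libraries. Of the 6 fibroblast markers 5 were counted, at a summed 139 and 148 CPM in the inputs and 216 and 164 CPM in the IP libraries. SF3B6's own transcript was counted a single time, in Input 2.

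On the GRCh38.p14 assembly, RefSeq places RNU2-1 at chr17:43233790-43233977. Beyond it, between positions 43239921 and 43368087 of chromosome 17, the same annotation lists 13 unnamed snRNA genes, of which 11 are 191 bases long, 1 is 192 and 1 is 189. Lengths implied by the deposited counts and FPKM values (fragments per kilobase of transcript and 1e+06 fragments) were 191 bases for 11 of the 12 rows named U2 and 192 bases for ENSG00000278774.1. RNU2-1 also came to 191 bases, although its RefSeq span is 188. The deposited table places all 12 rows on chromosome 17 but does not pair their identifiers with the RefSeq entries, so no single position is given for any of them. The pseudogenes lie on other chromosomes: RNU2-70P at chr1:236267780-236267955, RNU2-64P at chr3:73110994-73111179, RNU2-59P at chr10:101364850-101365035 and RNU2-6P at chr13:46374404-46374590. Copies of this array are near-identical, and the sources used here do not give how reads that match several copies were assigned. The sum over rows does not depend on how a read is split among copies. It would be too large if a read was counted at several, and too small if such reads were left out.

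Summed over its 17 rows, U2 was higher in both IP libraries than in both inputs. It had 187 counts in SF3B6 IP 1 and 41 in SF3B6 IP 2, against 121 in Input 1 and 63 in Input 2, although the inputs held several times more reads. As a share of gene counts, U2 made up 0.337% (95% Wilson interval 0.292% to 0.389%) of SF3B6 IP 1 and 0.135% (0.0993% to 0.183%) of SF3B6 IP 2. In the inputs the shares were 0.0381% (0.0319% to 0.0456%) and 0.0121% (0.00947% to 0.0155%). As shares of gene counts, none of these 4 intervals overlapped another, so the libraries of a group also differed by more than counting error. U2 in SF3B6 IP 1 was 2.50 times that in SF3B6 IP 2, and U2 in Input 1 was 3.15 times that in Input 2. Gene counts were 7.32% and 6.07% of the totals that underlie the FPKM table in IP, and 15.0% and 20.4% in input. The gap between groups was narrower on the FPKM scale, at 1292 and 429 in IP against 299 and 130 in input. At the pooled share of the inputs, 12.2 U2 counts would fall in SF3B6 IP 1 and 6.69 in SF3B6 IP 2. Per length, on the FPKM scale, the summed U2 held rank 10 and 24 of 18260 features in SF3B6 IP 1 and 2 and rank 31 and 49 in Input 1 and 2. All other features were ranked as single rows, without summing families of several copies, which favours U2 in this ranking.

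In edgeR's quasi-likelihood test the mean of the summed U2 was 2515 ± 1395 CPM for IP and 235 ± 178 CPM for input (CPM scaled by TMM, a trimmed mean that sets libraries on a common scale; SD, n = 2 libraries each). This was a 12.6-fold difference, or a log2 fold change of 3.66 ± 0.31 SE (edgeR, Benjamini-Hochberg adjusted p = 4.98e-11). Of 3660 tested features, U2 had the 6th highest log2 fold change, and the 3rd highest among the 1712 with at least 100 counts over the 4 libraries. An exact permutation test of the 4 shares, two-sided, gave p = 0.333, the smallest that 2 against 2 libraries allow. Leaving out SF3B6 IP 1 gave a log2 fold change of 2.65, leaving out Input 1 gave 4.61 and leaving out Input 2 gave 2.87. When libraries were scaled by the totals that underlie the FPKM table, U2 was at 2.03, where the median of all tested features was -1.65 in place of -0.06.

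**Figure D1:**
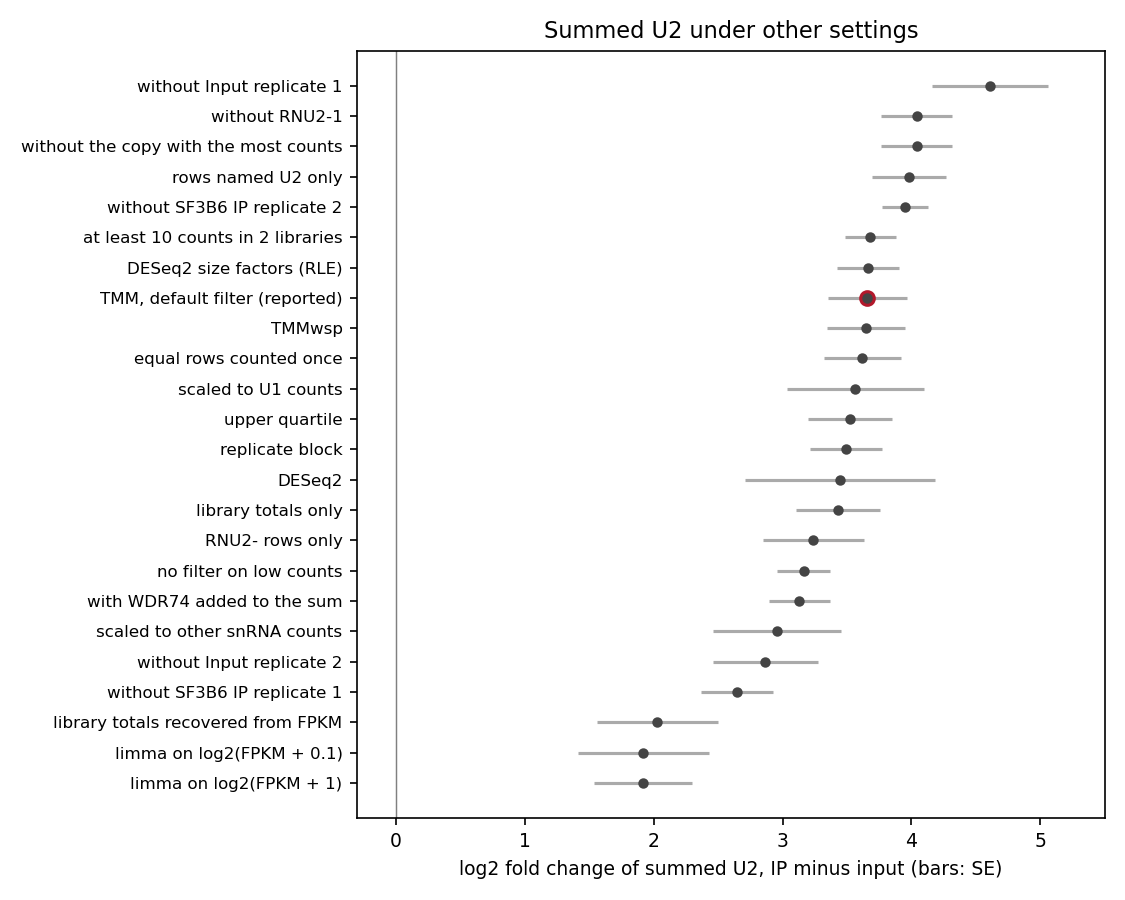
Log2 fold change of the summed U2 counts (IP minus input, horizontal axis; points are estimates, bars ± 1 SE) under the reported setting, ringed in red, and each other setting tried. All estimates lie above 0, from 1.92 on the FPKM scale to 4.61 without Input 1.

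All 17 rows had at least 1 IP count, and 16 also had an input count. Genes without any count are not among the 18276 rows, and of 71 RNU2- genes in RefSeq 5 are there. Having a count is thus partly set by membership. At a smaller depth, the IP libraries had counts in 17 and 16 of the 17 rows, and the inputs in 11 and 14. Both IP libraries lay above both inputs, on the scale of CPM, in 14 of the 17 rows, while 6.67% of all 18276 rows did so. The exceptions were RNU2-1, the U2 row ENSG00000275616.1 and RNU2-64P, which had 1 count in SF3B6 IP 1 and 0 in the other libraries. At the depth of the IP libraries few counts suffice: RNU2-6P was among the 14 with 1 and 1 counts against 2 and 0. Only the 6334 rows with a count in SF3B6 IP 2 could lie above both inputs. The share of 6.67% is therefore not a like background. Pooled over the libraries of a group, the ratio of IP to input ran from 1.08 to 77.9 over the 16 rows with an input count, and for 14 rows the exact 95% interval of this ratio lay above 1. Such intervals cover counting error only and leave out the spread between libraries. The share of all rows with such an interval was not computed, so the 14 is a description of these rows. RNU2-1 was among them (4.29 to 9.75), although SF3B6 IP 2 was its lowest library.

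**Figure D2:**
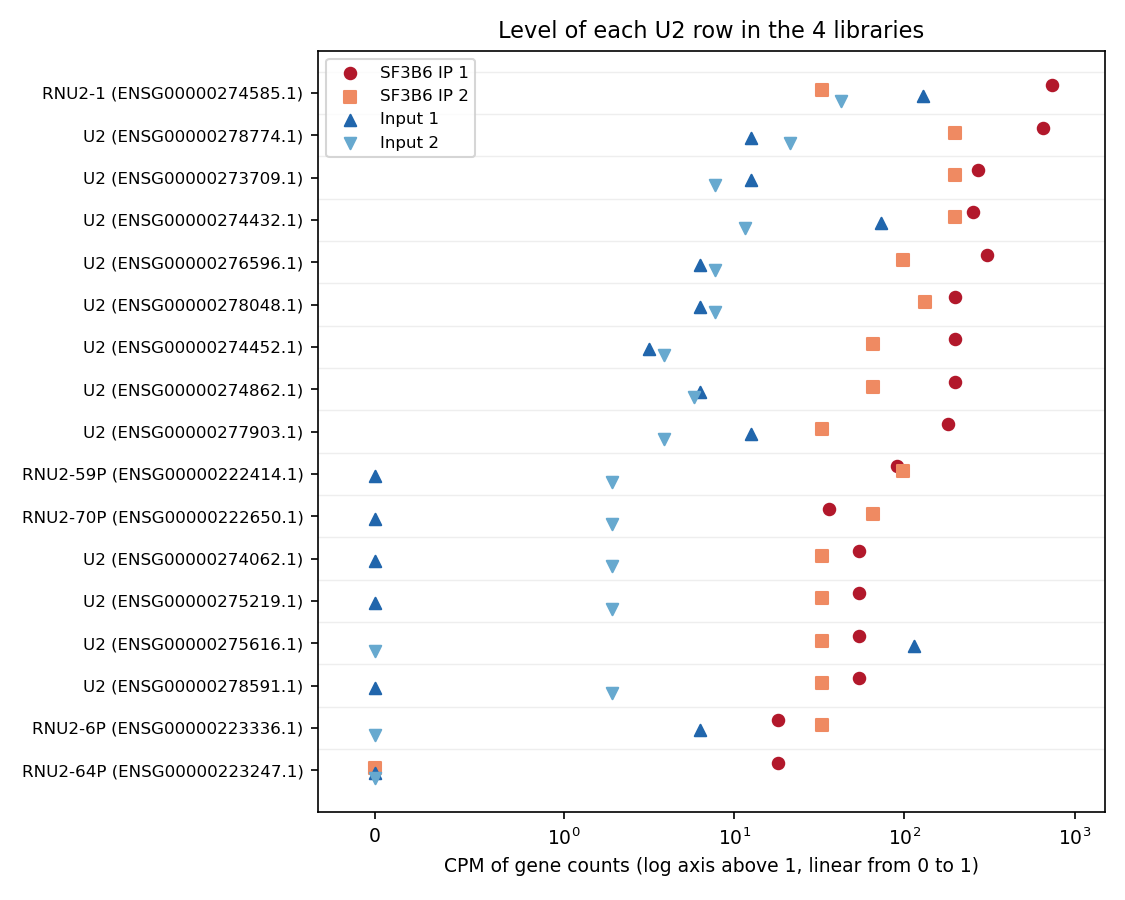
CPM of gene counts (horizontal axis, logarithmic above 1) for each of the 17 U2 rows in the 4 libraries, with IP libraries in red and orange and inputs in blue. Points on the left margin are counts of 0. In 14 rows both IP points lie right of both input points, and RNU2-1 and ENSG00000275616.1 have an input point beyond an IP point.

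Of the 17 rows, 9 had enough counts to be tested: RNU2-1 and 8 of the rows named U2. The 8 higher ones were RNU2-1 and 7 rows named U2, none was lower, and 2.7% of all 3668 tested features were higher at an adjusted p under 0.05. A row of few counts enters the test mainly through the libraries in which it is high. This count and the adjusted p of each single row below therefore describe the rows and give no support for the direction of the family. Under other settings the number called higher among the U2 rows tested, beside the share over all tested features, was 10 of 17 with no filter (0.274%), 6 of 9 with the FPKM totals (0.463%), 3 of 3 with a filter of 10 counts in 2 libraries (1.82%) and 4 of 6 with DESeq2 (1.82%). Leaving out SF3B6 IP 1 gave 1 of 4 (0.476%), SF3B6 IP 2 8 of 9 (1.51%), Input 1 2 of 8 (3.08%) and Input 2 2 of 7 (2.13%).

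The row ENSG00000278774.1, the U2 copy of 192 bases, had 36 counts in SF3B6 IP 1 and 6 in SF3B6 IP 2, against 4 in Input 1 and 11 in Input 2. In CPM these were 649 and 197 against 12.6 and 21.2, with no overlap between groups. Its log2 fold change was 4.94 ± 0.47 (edgeR adjusted p = 1.63e-10), and it was the only U2 row with a call under every setting tried, each library left out included. Without SF3B6 IP 1 it was at 3.52 ± 0.98 (edgeR adjusted p = 0.0457). ENSG00000276596.1, with IP counts of 17 and 3 and input counts of 2 and 4, had a log2 fold change of 5.11 ± 0.62 (edgeR adjusted p = 9.42e-08). ENSG00000273709.1 had 15 and 6 against 4 and 4, at 4.80 ± 0.57 (edgeR adjusted p = 7.65e-08). In both of these rows each IP library lay above each input, and neither passed without Input 1 or without Input 2, or was tested without SF3B6 IP 1.

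Another 3 rows had similar counts to each other. ENSG00000278048.1 had IP counts of 11 and 4 against 2 and 4 in input, ENSG00000274862.1 had 11 and 2 against 2 and 3, and ENSG00000274452.1 had 11 and 2 against 1 and 2. Their log2 fold changes were 4.71, 4.73 and 5.39 (edgeR adjusted p = 7.31e-07, 2.99e-06 and 6.09e-07). The last rests on 3 input counts in all, with a pooled ratio of 42.2 and an exact interval from 11.6 to 231. Without Input 1 these rows were at 4.64, 4.73 and 5.24, in the same order, and the calls were lost. ENSG00000278048.1 and ENSG00000274862.1 also lost the call without Input 2, at 4.75 and 4.46. ENSG00000274452.1 was not tested without Input 2 or without SF3B6 IP 2. The 3 rows were not tested without SF3B6 IP 1, nor were ENSG00000274862.1 and ENSG00000274452.1 with DESeq2. ENSG00000274432.1 stood out for its input: 14 and 6 IP counts were set against 23 in Input 1 and 6 in Input 2. Levels of 252 and 197 CPM in IP lay above the 72.5 and 11.5 CPM of the inputs. Its log2 fold change was 2.93 ± 0.60 (edgeR adjusted p = 0.00160), where the 6 rows above ran from 4.71 to 5.39. It did not pass without SF3B6 IP 1, Input 1 or Input 2 (edgeR adjusted p = 0.135, 0.380 and 0.524), with the FPKM totals (0.0619) or with DESeq2 (0.205).

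RNU2-1, the array's named gene, had 41 counts in SF3B6 IP 1 but 1 in SF3B6 IP 2, with 41 and 22 in the inputs. In CPM it stood at 739 and 32.9 in IP against 129 and 42.3 in input, so that SF3B6 IP 2 was the lowest of the 4 libraries and SF3B6 IP 1 the highest. The fit gave a log2 fold change of 2.88 ± 0.49 (edgeR adjusted p = 8.54e-05), at TMM-scaled levels of 403 ± 518 CPM in IP, an SD larger than the mean, against 80.5 ± 59.8 CPM in input. Without SF3B6 IP 1 it was at -1.11 (edgeR adjusted p = 0.774), and it did not pass with the FPKM totals (0.0736) or with DESeq2 (0.527). The call of RNU2-1 thus rests on SF3B6 IP 1. ENSG00000275616.1 was the tested row that did not pass, with 3 and 1 IP counts against 36 in Input 1 and 0 in Input 2 and a log2 fold change of 0.23 ± 1.26 (edgeR adjusted p = 0.964).

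The untested rows were scarce in input. ENSG00000277903.1 had 10 and 1 IP counts against 4 and 2, a pooled ratio of 17.9 with an interval from 6.05 to 58.8. The 3 rows ENSG00000274062.1, ENSG00000275219.1 and ENSG00000278591.1 had equal counts in every library, 3 and 1 in IP against 0 and 1, a ratio of 39.0 with an interval from 3.86 to 1919. Whether the same reads were counted at each of these copies was not tested. Counting such equal rows only 1 time left the summed U2 at a log2 fold change of 3.62.

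Pseudogene copies were few but mostly in IP. RNU2-59P was counted 5 and 3 times in IP against 0 and 1 in input, RNU2-70P had 2 and 2 against 0 and 1, and RNU2-6P had 1 and 1 against 2 and 0. The 4 pseudogenes together held 9 and 6 IP counts against 2 and 2, a pooled ratio of 36.5 with an exact interval from 11.6 to 151. They made up 4.81% and 14.6% of U2 counts in the IP libraries and 1.65% and 3.17% in the inputs. Whether these are reads of the pseudogenes or reads of array copies placed there cannot be told from gene counts.

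The spread of U2 counts over the rows differed between libraries more than the sum alone shows. In Input 1, RNU2-1, ENSG00000275616.1 and ENSG00000274432.1 held 100 of 121 U2 counts, or 82.6%. The same 3 rows held 44.4% of U2 counts in Input 2, 31.0% in SF3B6 IP 1 and 19.5% in SF3B6 IP 2. Among all 18276 rows, ENSG00000275616.1 was the only 1 with at least 36 counts in Input 1 and 0 in Input 2, while 1634 rows reached 36 counts in Input 1. RNU2-1 was likewise the only 1 with at least 41 counts in SF3B6 IP 1 and at most 1 in SF3B6 IP 2, among 114 rows that reached 41 counts there. Both thresholds are these rows' own counts and were chosen after their values had been seen.

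Set apart from those 3 rows, the other 14 had nearly equal levels in the inputs, at 66.2 and 67.3 CPM, a ratio of 0.983 where the full sum gave 3.15. Their IP levels were 2325 and 1084 CPM, with 129 and 33 counts against 21 and 35 in input, and a pooled ratio of IP to input of 28.2. For the 3 rows the pooled ratio was 5.02, with levels of 1045 and 263 CPM in IP against 315 and 53.9 CPM in input. The 3 rows were chosen for their high counts in Input 1, after the values had been seen. Setting them apart of itself lowers Input 1 and raises the ratio of the other 14, so these values are a description and not a comparison of the copies.

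**Figure D3:**
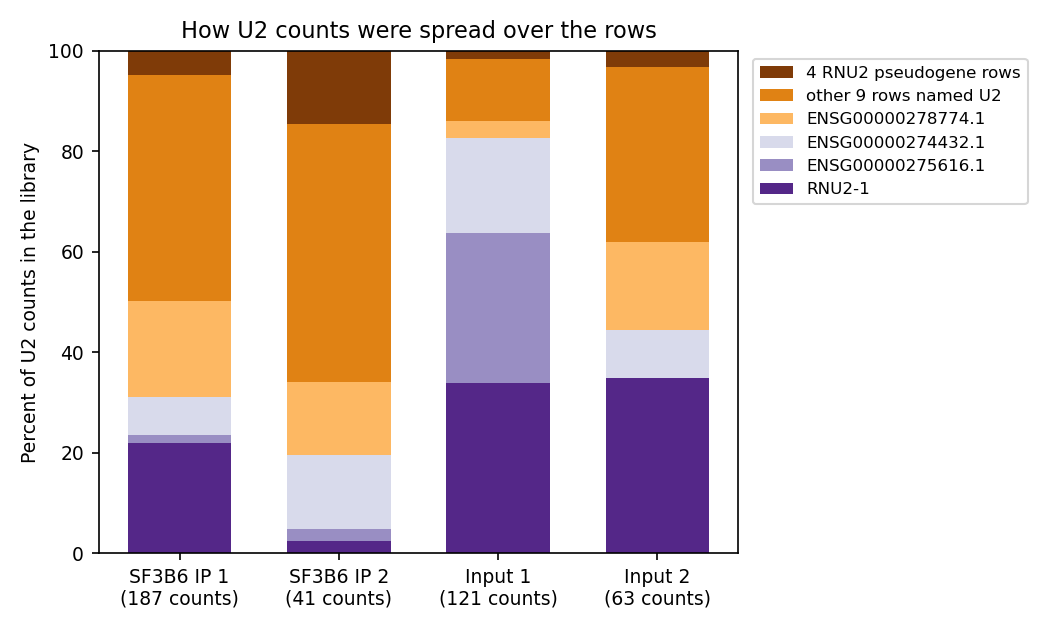
Percent of each library's U2 counts (vertical axis) held by RNU2-1, by 3 single U2 rows, by the other 9 rows named U2 and by the 4 pseudogene rows; the number of U2 counts is given under each bar. RNU2-1, ENSG00000275616.1 and ENSG00000274432.1 (violet shades) hold 82.6% of the counts in Input 1 and 19.5% in SF3B6 IP 2.

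Other snRNA families were set beside U2, each summed over its rows. U12, the branch point snRNA of the minor spliceosome, moved like U2: its gene RNU12 was counted 44 and 17 times in IP and 15 and 18 times in input, with a log2 fold change of 4.38 ± 0.33 (edgeR adjusted p = 2.86e-14). U11, which binds the start of minor introns and shares a particle with U12, was counted 15 and 4 times in IP against 30 and 22 times in input and was at 2.05 ± 0.51 (0.0119), without a call when any of SF3B6 IP 1, Input 1 or Input 2 was left out, with the FPKM totals, with no filter or with DESeq2. U4, which pairs with U6 in the tri-snRNP, was at 1.49 ± 0.20 (edgeR adjusted p = 8.89e-07), but at -0.11 with the FPKM totals. U1, the snRNA that recognises 5′ splice sites, was at 0.00 ± 0.22 (edgeR adjusted p = 1.00), and U5, which holds the exons together, at 0.02 ± 0.30 (0.987). With the FPKM totals both were lower, U1 at -1.58 and U5 at -1.60 (edgeR adjusted p = 0.00118 and 0.0135). The minor spliceosome RNAs U4atac (0.73 ± 0.37, edgeR adjusted p = 0.324) and U6atac (0.54 ± 0.68, 0.805) missed the threshold, and both were below 0 with the FPKM totals (-0.90 and -1.08). U6, with 3 IP and 8 input counts, was not tested. Of 17 tested single rows of these families, 4 were higher (RNU12, RNU11, RNU4-1 and RNU4-2) and none lower, with a median log2 fold change of 0.49 against -0.06 over all tested features, of which 2.7% were higher and 1.42% lower. With the FPKM totals, 1 of these 17 rows was higher and 5 were lower, where 17 of all 3668 tested features were higher and 2098 lower.

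**Figure D4:**
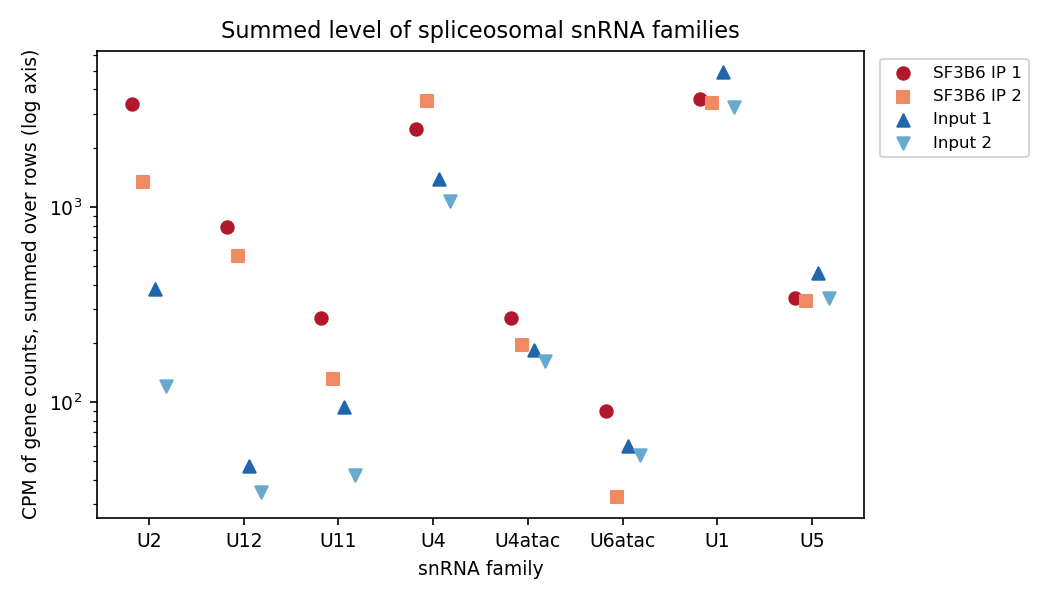
CPM of gene counts, summed over the rows of each of 8 tested snRNA families (logarithmic vertical axis), in the 4 libraries. U2, U12, U11, U4 and U4atac have both IP points above both input points, and U2 has a wider gap between its inputs (381 and 121 CPM) than U1 (4915 and 3270 CPM).

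Within a library, the ratio of U2 to another snRNA does not depend on how libraries are scaled to each other. U2 counts were 0.944 and 0.394 times those of U1 in SF3B6 IP 1 and 2, but 0.0776 and 0.0371 times in Input 1 and 2. The mean log2 ratio was -0.71 ± 0.89 in IP and -4.22 ± 0.75 in input (SD, n = 2), a difference of 3.51, or 11.4-fold. Relative to U5 the difference was 3.55, to U6atac 3.37, to U4atac 2.90, to U4 2.03 and to U11 1.73, and in each of these 6 ratios both IP libraries lay above both inputs. Relative to U12 the direction was the opposite: U2 counts were 4.25 and 2.41 times those of U12 in IP and 8.07 and 3.50 times in input, with overlap between the groups and a difference of -0.73. Exact permutation tests, two-sided, gave p = 0.333 for the 6 ratios without overlap and p = 0.667 for U12, or 0.389 and 0.667 after adjustment over the 7 ratios, so none of these differences passed in a design whose smallest p is 0.333.

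**Figure D5:**
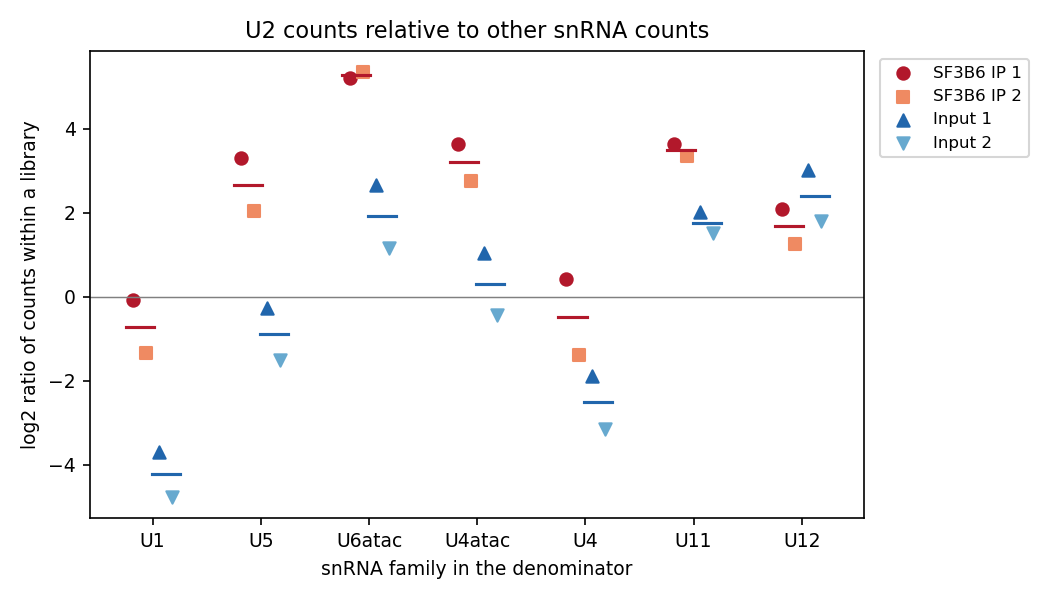
Log2 ratio of U2 counts to the counts of 7 other snRNA families inside each library (vertical axis); short lines are the means of the 2 IP (red) and 2 input (blue) libraries. Both IP points lie above both input points for U1, U5, U6atac, U4atac, U4 and U11, and the groups overlap for U12.

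As a share of the counts of all 9 snRNA families, U2 made up 30.0% (95% Wilson interval 26.5% to 33.7%) in SF3B6 IP 1 and 14.1% (10.6% to 18.6%) in SF3B6 IP 2. In Input 1 it was 5.05% (4.25% to 6.01%) and in Input 2 2.37% (1.86% to 3.03%). U1 made up 31.8% and 35.7% of these counts in the IP libraries and 65.1% and 64.1% in the inputs. Per length, on the FPKM scale, U2 ranked 3rd of the 9 families in both IP libraries, behind U1 and U4, and 4th and 5th in the inputs, behind U1, U4 and U5 and, in Input 2, U4atac. These shares and ranks depend on how reads that match several copies were counted, which is not known here.

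WDR74, a protein-coding gene whose RefSeq span (chr11:62832905-62841809) contains the U2 gene RNU2-2 at its upper end (62841619 to 62841809), was also higher. RNU2-2 is not 1 of the 17 rows. WDR74 was counted 419 and 166 times in IP and 324 and 448 times in input, with a log2 fold change of 3.02 ± 0.21 (edgeR adjusted p = 2.99e-14). How much of the WDR74 count comes from RNU2-2 was not tested, and with WDR74 added the U2 sum was at 3.13.

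No tested messenger of the U2 machinery was among the features that passed. Listed genes of U2 snRNP proteins and their partners had 31 rows, of which 10 had enough counts to be tested. None was higher or lower, with 1 at an unadjusted edgeR p under 0.05 and a median log2 fold change of -0.01. The most counted were SF1, the branch point binding protein, at -0.06 (13 and 2 IP counts against 56 and 121), and U2AF2, which binds the pyrimidine tract, at 0.15 (12 and 4 against 55 and 108). Listed genes of snRNA transcription, processing, export and assembly had 43 rows, of which 8 were tested. None passed, with 3 at an unadjusted edgeR p under 0.05 and a median of 0.56. INTS1, a subunit of the Integrator complex that cleaves snRNA precursors, was at 0.52 ± 0.24 (edgeR adjusted p = 0.267). INTS11, its catalytic subunit, was at 1.09 ± 0.33 (edgeR adjusted p = 0.0505) and passed with the size factors of DESeq2, with a filter of 10 counts and without SF3B6 IP 2 (0.0328, 0.0352 and 0.0237). It was at 0.18 without SF3B6 IP 1 (edgeR adjusted p = 0.961) and at -0.55 with the FPKM totals (0.362), and DESeq2 gave an adjusted p of 0.368. Small Cajal body RNAs, which guide the modification of U2 and other snRNAs, had 13 rows, of which 3 were tested: SCARNA2 at -0.35, SCARNA7 at -0.76 and SCARNA10 at -1.44, and none passed. In these 3 lists DESeq2 also called none. Over all tested features 2.7% were higher and 1.42% lower, so the lack of calls in lists this small does not set them apart.

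Among 1711 other features with at least 100 counts, those whose levels ran most like the summed U2 over the 4 libraries were ENSG00000277437, MIR3648-1, MIR3648-2, ENSG00000264063 and RNA5SP202. Likeness was the Euclidean distance between centred log2(CPM + 1) profiles, which ran from 1.05 to 1.25 for these 5. The first 4 are annotated as microRNA genes on chromosome 21 and the last as a 5S rRNA pseudogene on chromosome 6. They share with U2 the 4 libraries and hence their depth, and their log2 fold changes were 3.15, 3.19, 4.07, 3.45 and 3.19.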

How the data were processed

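RNA of irradiated, nuclease-treated lysate was sequenced before (input) and after (IP) SF3B6 pull-down, per the labels' protocols. The authors deposited a table of raw read counts per gene and another of FPKM values. Per the submitters' processing notes, HISAT2, HOMER and the hg38 build were used, without stated roles. Read counter, strand setting and multi-mapping rule: not given in the sources used here. Each library counted as 1 replicate, because chi-square per degree of freedom between libraries of a group (3.54 for IP, 1.59 for input) exceeded sampling noise. P-values of the fits rest on the spread between these libraries together with a spread shared across features.

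Counts were tested with edgeR 4.0.16 in R 4.3.3 (quasi-likelihood, TMM, default filter, group as the only term, adjusted p under 0.05), per row and with the U2 rows, or those of each family, replaced by their sum. SE was computed from the fold change and F. Alternatives used DESeq2 1.42.0 and limma 3.58.1. FPKM totals (0.758, 0.501, 2.12 and 2.55 in units of 1e+06 for SF3B6 IP 1 and 2 and Input 1 and 2) were recovered from small RNA genes of at least 20 counts with known RefSeq length. As a check of the code only, the edgeR fit was run on simulated counts with a single set spread for all genes. Without molecular identifiers, intervals and floors at 95% cover counting error only. The rule for named genes took all members, the other snRNA families, SF3B6, WDR74, list members that passed, the 2 most counted of each messenger list, and the 5 nearest features. The Cajal body RNAs and marker genes were named beside it. Members, lists and tests were chosen with earlier results of these data known. Sequences of the U2 genes were not used here.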

Additional observations from a re-analysis of the deposited data

How the results depend on the processing

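The summed U2 kept its direction and an adjusted p under 0.05 in every alternative tried, with log2 fold changes (reported 3.66) from 1.92 on the log2(FPKM + 1) and log2(FPKM + 0.1) scales to 4.61 without Input 1. With a replicate block it was at 3.49. The strength of the call depended on the method. Its adjusted p was 4.98e-11 in the reported edgeR fit, 0.000332 with DESeq2 and 0.000542 with edgeR on the FPKM totals. With limma on log2(FPKM + 0.1) it was 0.0156. Replicate numbers are not shown to pair the libraries: replicate 1 minus 2 differences of IP and input had r = 0.00 across 3350 genes, and 2 pairs cannot settle it. The number of U2 rows called higher was 8; it was 3 with at least 10 counts in 2 libraries, 4 with DESeq2, and 1 to 8 with a library left out. Counting equal rows 1 time (3.62) and scaling to the other snRNAs (2.96) were chosen after seeing the data; leaving out RNU2-1 (4.04) is the same fit as the planned one without the most counted copy. All features called numbered 151; they were 2115 with the FPKM totals (17 higher, of which 6 were U2 rows, and 2098 lower), 96 with a replicate block, 39 with DESeq2, and 31 to 163 with a library left out. The split of higher against lower was 99 and 52 with TMM, 67 and 69 with upper quartile scaling and 60 and 90 with library totals. With the FPKM totals 6 of 10 tested messengers of the U2 machinery, 2 of 8 of snRNA assembly and 3 of 3 Cajal body RNAs were called, where none was reported. Under that setting 2098 of all 3668 tested features were lower and 17 higher, so such calls are not particular to the lists. SF1 (-1.69), U2AF2 (-1.46) and INTS1 (-1.13), which were among these calls, were lower. Messengers of snRNA assembly also had 1 call with the DESeq2 size factors and 1 with at least 10 counts. Signs turned with the FPKM totals for RNU4-2 (-0.022), RNU4-1 (-0.27), summed U4 (-0.11), summed U5 (-1.60), U4atac (-0.90), U6atac (-1.08), U2AF2 (-1.46), INTS1 (-1.13), INTS11 (-0.55) and the U2 row ENSG00000275616.1 (-1.35), and for RNU2-1 without SF3B6 IP 1 (-1.11; up to 3.65 with another library left out). ENSG00000275616.1, U1, U5, U6atac, SF1, U2AF2 and INTS1, none of them called in the reported fit, also turned sign under other settings. As a share of snRNA counts, the U2 difference was 18.3 percentage points in place of 0.211 of gene counts, which is another quantity. WDR74 passed in every alternative (1.43 to 3.23), and ratios of U2 to U1, U4, U5 and U12 kept their sign. At the depth of the IP libraries 8 U2 rows were not tested, and adjusted p from 2 libraries a group rest on a spread shared across features. Beyond the FPKM totals and the smaller numbers of features or libraries, causes of these shifts were not tested.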
